A study of Mus musculus with 15 samples.

Results

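The comparison described here set the RNA of mouse neural progenitor cells that received the hairpin shLINE_MdV_I against that of cells that received the control hairpin shControl. It took 3 libraries of each group, 6 of the 15 libraries in the series, chosen by their titles, and all annotated genes. All cells were labelled wild type and were kept with FGF2, EGF and heparin, and in each group a plasmid with a short hairpin RNA (shRNA, an RNA that lowers transcripts of matching sequence) and EGFP was delivered, with GFP-positive cells sorted on day 3. The series was designed to lower young and old LINE-1 elements with such hairpins, and its other groups are shLINE_Orf1, shLINE_Orf2 and shLINE_Orf1 given with a full-length LINE-1 (shLINE_Orf1+LINE-1), again in 3 libraries per group. The labels do not say whether MdV_I stands for young or old elements, and each hairpin target is represented by 1 label, so an effect of a hairpin's sequence and an effect of its target cannot be told apart. LINE-1 RNA itself was not analysed here, and so how far the hairpin lowered it is not given.

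LINE-1 retrotransposons are genomic repeats that spread by reverse transcription of their own RNA. Cells can detect nucleic acids of such elements with the same sensors that detect viruses, and these sensors act through Mavs, Sting and the interferon regulatory factors on type I interferon genes. Interferon then acts through its receptor and Irf9 on a promoter element, the interferon-stimulated response element, and raises a large set of antiviral genes and the class I antigen presentation genes. Neural progenitor cells divide and give rise to neurons, astrocytes and oligodendrocytes.

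The shLINE_MdV_I libraries held 48744349, 47566205 and 46958269 gene counts and the shControl libraries 45102582, 49356305 and 46075421, within the 39208923 to 51075758 of the series. Replicates differed by more than counting noise in both groups, and chi-square divided by its degrees of freedom was 8.75 to 21.9 between shLINE_MdV_I libraries and 44.8 to 143 between shControl libraries. Of the compared libraries, shControl replicate 2 stood apart on the first principal component and shControl replicate 1 on the second, and shLINE_Orf1 replicate 1 stood farthest of all 15. The library descriptions of shLINE_MdV_I replicates 2 and 3 and of shLINE_Orf1 replicate 1 end in 12, and those of shLINE_MdV_I replicate 1 and all shControl libraries end in 1. The labels do not say what this number is. Within the 6 compared libraries shLINE_MdV_I replicate 1 alone shares its number with shControl, and the fit with the number as a covariate also draws on shLINE_Orf1 replicate 1. The p-values measure the spread between replicate libraries, estimated over all 15 libraries and not over the 6 compared ones alone. Nothing in the labels says that replicates came from separate cultures, so this spread may be technical. Markers were those of a progenitor culture. Sox2 averaged 199 ± 8.36 CPM (counts scaled to a common library total) in shLINE_MdV_I and 203 ± 16.8 CPM in shControl, and the radial glial gene Fabp7 averaged 3172 ± 278 CPM in shLINE_MdV_I and 3672 ± 878 CPM in shControl (SD, n = 3 each). Of the 12 microglia and macrophage genes listed, Aif1 and Tyrobp were at 0 in all 6 libraries, 5 were tested and none was called, and the list summed to 32.7 to 36.2 CPM in shLINE_MdV_I and 36.3 to 39.3 CPM in shControl. Of the 10 pericyte and fibroblast genes, Kcnj8 was at 0 in all 6, 4 were tested and none was called. That list summed to 11 to 14 CPM in shLINE_MdV_I and 9.27 to 11.2 CPM in shControl, with 1 tested gene positive, 3 negative and a median of -0.347. Their part in the results was not tested.

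Of 15147 genes tested, 39 were higher and 51 lower in shLINE_MdV_I than in shControl, called at a Benjamini-Hochberg adjusted p under 0.05 by edgeR's quasi-likelihood test. The 90 called genes are 0.594% of those tested, the higher ones 0.257% and the lower ones 0.337%. For each of them the 3 shLINE_MdV_I libraries lay beyond the 3 shControl libraries, which also held for 8.22% of all tested genes in the higher direction and 6.65% in the lower direction. The lower set included genes of the interferon response and class I presentation (16 of 51), histones (6) and astrocytes (4). The higher set held 4 genes of a list of neuronal genes, 2 of the astrocyte list and none of the interferon response. Tested members numbered 91 for the interferon response, 29 for class I presentation, 64 for histones, 41 for astrocytes and 68 for neurons. All gene lists were chosen with earlier results of these data known, so their counts, signs and medians are a description. Lower genes changed by a median of 1.02 on the log2 scale, higher genes by a median of 0.68 and all tested genes by 0.14, as absolute values. The count moved with the libraries used. It was 22, 28 and 30 without shLINE_MdV_I replicates 1, 2 and 3, and 43 and 57 without shControl replicates 1 and 2. It was 389 without shControl replicate 2 and shLINE_Orf1 replicate 1, which stand apart. A fit of only the libraries whose description ends in 1 leaves shLINE_MdV_I replicate 1 as the only library of its group, and its count is not given.

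**Figure D1:**
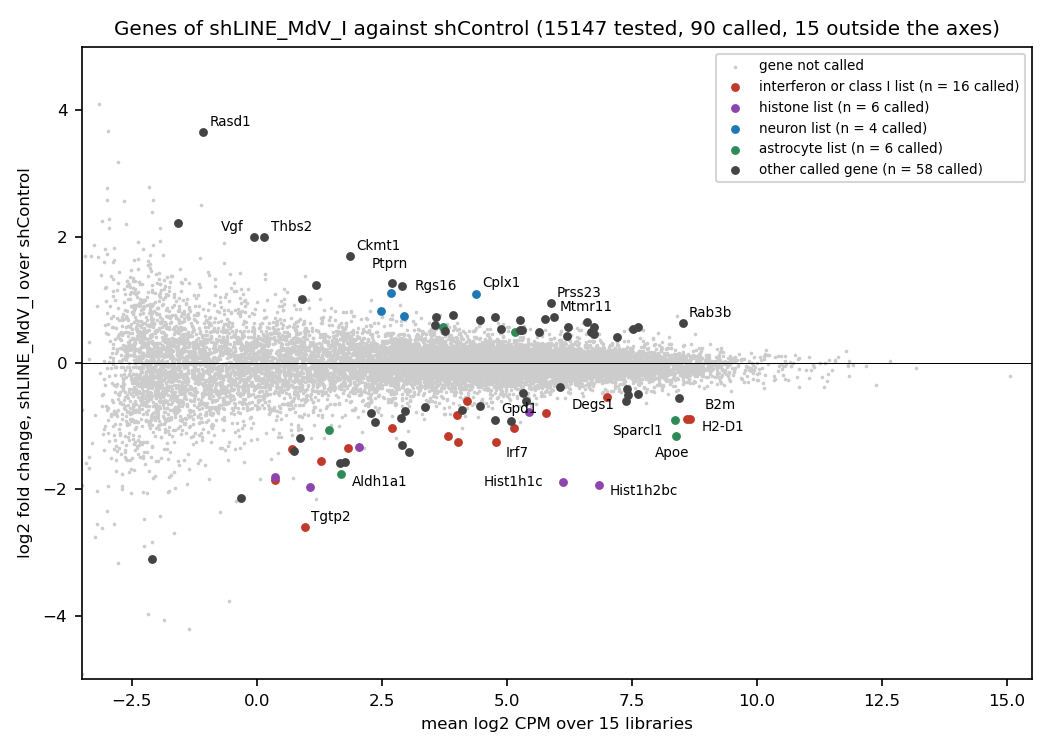
Each point is 1 of the tested genes, with its mean log2 CPM over 15 libraries on the x axis and its log2 fold change of shLINE_MdV_I over shControl on the y axis. Coloured points are the 90 called genes by gene list, and 15 uncalled genes lie outside the axes. The interferon, class I and histone genes that were called all lie below 0.

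Of 61 antiviral effector genes of the interferon response that were tested, 8 were called lower in shLINE_MdV_I and none higher. Ifit3b, which encodes a protein of the family that binds viral RNA (chromosome 19, 34607970 to 34613401, GRCm38), fell to 7.89, 7.98 and 7.99 CPM in the shLINE_MdV_I libraries, against 22.7, 15.9 and 14.4 CPM in the shControl libraries. This is -1.15 ± 0.17 as a log2 fold change with its SE (adjusted p = 0.00421 by edgeR). The shLINE_MdV_I libraries were nearly equal to each other and all below the lowest shControl library. Its near-identical neighbour Ifit3 held 21.8, 22.9 and 20.3 CPM in shLINE_MdV_I and 55.5, 45.8 and 30.6 CPM in shControl (-1.02 ± 0.19, adjusted p = 0.0238). Reads of the Ifit3 genes could have been split between them in counting. Oas1a, an oligoadenylate synthetase that is switched on by double-stranded RNA (chromosome 5, 120896256 to 120907521), held 1.48, 2.07 and 1.88 CPM in shLINE_MdV_I and 4.81, 5.38 and 3.61 CPM in shControl. It fell by 1.34 ± 0.22 on the log2 scale (adjusted p = 0.0109). Bst2, the tetherin that holds budding viruses at the cell surface (chromosome 8, 71534255 to 71537456), held 36.4, 35.7 and 35.5 CPM in shLINE_MdV_I and 59.6, 78.6 and 47.1 CPM in shControl. All its shLINE_MdV_I libraries were below every shControl library, although the shControl libraries themselves were far apart (log2 fold change -0.78 ± 0.14, adjusted p = 0.0203). With each of the 6 compared libraries left out in turn, Ifit3, Oas1a and Bst2 lost their calls in 5, 2 and 4 of 6 cases (adjusted p up to 0.154, 0.107 and 0.122). Ifit3b stayed called with any 1 library left out.

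The other called effectors were Ifi35, an interferon-induced protein, the schlafen genes Slfn2 and Slfn8, and Phf11d. Slfn8 held 0.839, 0.873 and 0.753 CPM in shLINE_MdV_I and 2.47, 1.75 and 2.12 CPM in shControl, a log2 fold change of -1.36 ± 0.21. Slfn2 had the largest change of the effectors called, -1.85 ± 0.39, at 0.32, 0.528 and 0.774 CPM in shLINE_MdV_I and 2.45, 1.92 and 1.47 CPM in shControl. Phf11d changed by -1.54 ± 0.24 and Ifi35 by -0.81 ± 0.15. Slfn2, Phf11d and Ifi35 lost their calls in 6, 1 and 5 of the 6 cases with 1 compared library left out (adjusted p up to 0.256, 0.0628 and 0.174). Slfn8 stayed called with any 1 library left out. The 61 effectors tested of 65 listed had 53 negative and 8 positive log2 fold changes with a median of -0.37. Over all tested genes 52.4% were negative and 47.6% positive, with a median of -0.01. In 32 of the 61 effectors all shLINE_MdV_I libraries were below all shControl libraries, as in 6.65% of all tested genes. Well-known members were among those not called. Isg15, a ubiquitin-like protein that is attached to other proteins, held 34.8, 32.9 and 33.5 CPM in shLINE_MdV_I and 52.3, 58.5 and 38.3 CPM in shControl (adjusted p = 0.0609). Ifi44 had a log2 fold change of -0.84 ± 0.21 (adjusted p = 0.0982) and the membrane protein gene Ifitm3 one of -0.37 ± 0.10 (adjusted p = 0.181).

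Interferon-inducible GTPases, which act on the vacuoles of parasites and bacteria inside cells, were negative in all 14 tested members (15 listed), with a median log2 fold change of -0.57 and 4 called. Tgtp2 (chromosome 11, 49057194 to 49064206) was at 0.639, 0.65 and 0.439 CPM in shLINE_MdV_I and 4.51, 4.02 and 2.02 CPM in shControl, which is 32, 32 and 21 counts against 210, 186 and 96. Its log2 fold change of -2.60 ± 0.35 was the largest among the called interferon genes (adjusted p = 0.00251). Its close copy Tgtp1 had 0.18, 0.406 and 0.23 CPM in shLINE_MdV_I and 2.43, 0.756 and 0.567 CPM in shControl and was not called (adjusted p = 0.113), and counting could have divided reads between the copies. Igtp held 11.9, 12.1 and 13 CPM in shLINE_MdV_I and 20.1, 18.1 and 17.9 CPM in shControl, with a log2 fold change of -0.60 ± 0.11 (adjusted p = 0.0238). Irgm1, which regulates the other GTPases of its family, held 95.8, 98.5 and 89 CPM in shLINE_MdV_I and 155, 134 and 122 CPM in shControl (-0.53 ± 0.11, adjusted p = 0.0457). The groups did not overlap in either gene. The guanylate-binding gene Gbp6 held 9.83, 10.6 and 8.54 CPM in shLINE_MdV_I and 33.8, 16.4 and 18.6 CPM in shControl, with replicate 1 the highest (-1.25 ± 0.23, adjusted p = 0.0203). Igtp, Irgm1 and Gbp6 lost their calls in 4, 5 and 3 of the 6 cases with 1 compared library left out (adjusted p up to 0.172, 0.202 and 0.122). Tgtp2 stayed called in all 6 cases.

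Among the transcription factors and signalling genes of the pathway, Irf7 was called. Irf7 induces type I interferon genes and is itself induced by interferon (chromosome 7, 141262706 to 141266481). It held 14.8, 15.8 and 15.1 CPM in shLINE_MdV_I and 38.5, 41.3 and 28.7 CPM in shControl, a log2 fold change of -1.25 ± 0.18 (adjusted p = 0.00421). The spread between shLINE_MdV_I libraries was far smaller than the distance to the lowest shControl library, and the call held with any 1 library left out. Of the 16 factors and signalling genes tested, 9 were positive and 7 negative, and their median log2 fold change was 0.07. Irf9, a factor that binds the interferon-stimulated response element, had a log2 fold change of -0.28 ± 0.12 (adjusted p = 0.491). Of 21 genes for interferon ligands in the table, 20 were at 0 counts in all 6 libraries and Ifnz held 0, 7 and 7 counts in shLINE_MdV_I and 8, 16 and 2 in shControl.

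Over the whole interferon list, 91 of 96 genes were tested, 74 were negative, 13 were called lower and none was called higher, with a median of -0.35. As the mean of log2(CPM + 0.1) over its members, relative to shControl, the list was at -0.45, -0.38 and -0.44 in shLINE_MdV_I and at 0.20, -0.09 and -0.11 in shControl. The 9 libraries of the other groups lay between -0.23 and 0.17, above every shLINE_MdV_I library. The number of members called lower was 4, 6 and 6 without shLINE_MdV_I replicates 1, 2 and 3, 7 without shControl replicate 1, 3 when the fit held the compared groups alone and 27 without the libraries that stand apart. With only the libraries whose description ends in 1, which leaves shLINE_MdV_I replicate 1 alone in its group, the median was -0.35.

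**Figure D2:**
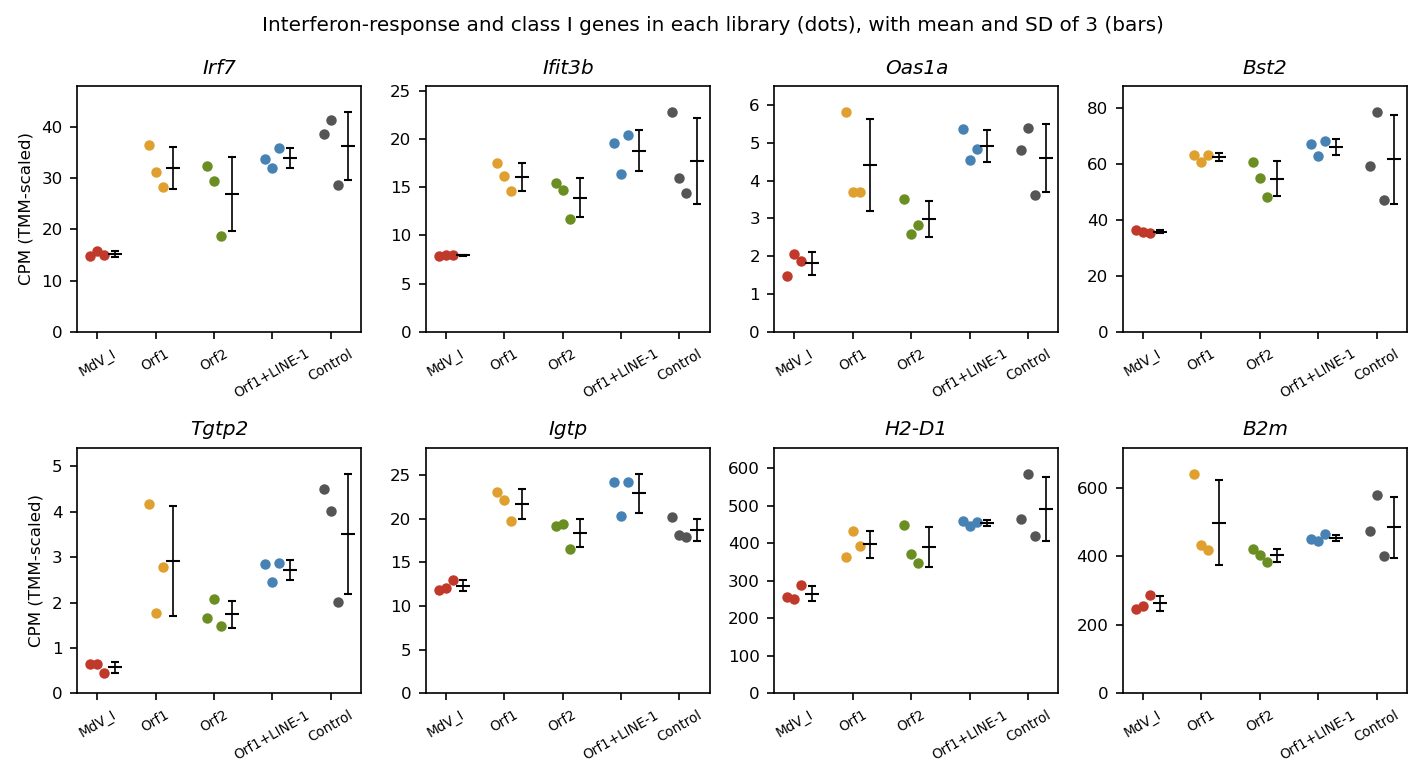
CPM of 6 interferon-response genes and of the class I genes H2-D1 and B2m in each of the 15 libraries. Dots are libraries and bars are the mean and SD of 3, with shLINE_MdV_I at the left of each panel and shControl at the right. In every panel the shLINE_MdV_I libraries are below all shControl libraries.

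Of 29 tested genes of class I antigen presentation, which show peptides of the cell's own proteins to T cells, 3 were called lower and none higher. H2-D1, a class I heavy chain (chromosome 17, 35262730 to 35267499), held 258, 251 and 289 CPM in shLINE_MdV_I and 466, 585 and 420.1 CPM in shControl, a log2 fold change of -0.88 ± 0.13 (adjusted p = 0.00425). The light chain B2m (chromosome 2, 122147686 to 122153083) held 247, 254 and 286 CPM in shLINE_MdV_I and 474, 578 and 402 CPM in shControl (-0.89 ± 0.15, adjusted p = 0.0152). In both genes the groups did not overlap, with the highest values in shControl replicate 2. The heavy chain gene H2-Q4 held 4.12, 4.34 and 3.47 CPM in shLINE_MdV_I and 8.31, 9.33 and 6.7 CPM in shControl (-1.03 ± 0.20, adjusted p = 0.0241). B2m and H2-Q4 were no longer called without any 1 of shLINE_MdV_I replicates 1, 2 and 3 and shControl replicates 1 and 2, thus in 5 of 6 cases each. Their adjusted p went up to 0.145 and 0.14, while H2-D1 stayed called with any 1 library left out. Heavy chain genes are alike in sequence, so reads could have been divided between them. Of the 14 chains tested (19 listed), 13 were negative, with a median of -0.56 and 3 called. H2-T23 and H2-Q7 had log2 fold changes of -0.64 ± 0.16 and -0.65 ± 0.15 and were not called (adjusted p = 0.0906 and 0.0754).

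The 15 genes of peptide supply and loading had 12 negative values, a median of -0.22 and none called. Psmb8, an immunoproteasome subunit, held 24.6, 25.1 and 27.1 CPM in shLINE_MdV_I and 38, 52.8 and 32.4 CPM in shControl, without overlap (log2 fold change -0.68 ± 0.16, adjusted p = 0.0688). The peptide transporter gene Tap1 had a log2 fold change of -0.39 ± 0.14 (adjusted p = 0.344). The 3 class I genes called became 1 without any single library other than shControl replicate 3, without which they were 6. With only the libraries whose description ends in 1, which leaves shLINE_MdV_I replicate 1 alone in its group, the median over the 29 tested genes was -0.42.

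Promoter stretches of 9 lower genes are shown because they hold the letters of the interferon-stimulated response element. The motif searched was GAAA, any 2 bases and again GAAA, on both strands, in windows of 250 bases before to 50 bases after each gene start (RefSeq, GRCm38.p6), and 11214 of 15131 tested symbols had a window. It was present in 415 of them, 3.7%. Among the called genes with a window, it was found in 9 of 35 that were lower and in 0 of 30 that were higher. The 9 are all interferon or class I genes, of 15 such genes with a window, and the other 20 lower genes held none. In the interferon list as a whole 35 of 72 windows held it. The stretch around the motif upstream of each start is printed 5′ to 3′ on the gene's strand, with the motif in capitals, which reads TTTC, 2 bases and TTTC where it lies on the other strand. Overlapping copies are run together.
B2m (chr2:122147528-122147577, plus strand): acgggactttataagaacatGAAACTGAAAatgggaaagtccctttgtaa
Bst2 (chr8:71537567-71537622, minus strand): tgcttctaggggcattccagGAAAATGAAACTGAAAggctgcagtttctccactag
Ifit3 (chr19:34583353-34583436, plus strand): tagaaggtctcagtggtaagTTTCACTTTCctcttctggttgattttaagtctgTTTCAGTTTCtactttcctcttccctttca
Ifit3b (chr19:34607749-34607832, plus strand): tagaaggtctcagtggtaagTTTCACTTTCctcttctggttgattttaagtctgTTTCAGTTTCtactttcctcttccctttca
Igtp (chr11:58199502-58199551, plus strand): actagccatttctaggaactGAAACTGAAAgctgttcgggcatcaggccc
Irgm1 (chr11:48871421-48871470, minus strand): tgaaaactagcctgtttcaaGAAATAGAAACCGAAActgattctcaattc
Oas1a (chr5:120907526-120907565, minus strand): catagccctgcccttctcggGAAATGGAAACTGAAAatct
Slfn8 (chr11:83020829-83020878, minus strand): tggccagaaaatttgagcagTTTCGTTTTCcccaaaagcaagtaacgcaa
Tgtp2 (chr11:49064253-49064302, minus strand): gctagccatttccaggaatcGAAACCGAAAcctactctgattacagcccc
The stretches of Ifit3 and Ifit3b are identical, and Bst2, Irgm1 and Oas1a each hold copies that overlap. A match describes letters, not a site in use. The gamma-activated site TTCNNNGAA was in 8.29% of all windows and 6 of the 35 lower genes. The cyclic AMP response element TGACGTCA was in 3.42% of all windows and in 0 of the 30 higher genes.

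Of 26 tested sensors of nucleic acids and their adaptors, 2 were called higher and 1 lower. The lower one was Irf7, which the interferon list also holds. By sign 18 were negative and 8 positive, with a median of -0.09. Mavs, the mitochondrial adaptor of the RNA sensors, was higher, at 30.7, 29.3 and 31.1 CPM in shLINE_MdV_I and 18.2, 16.5 and 20.2 CPM in shControl (log2 fold change 0.73 ± 0.13, adjusted p = 0.0193). Sarm1, an enzyme that breaks down NAD in injured axons and is related to the Toll-like receptor adaptors, held 23.4, 21.7 and 19.7 CPM in shLINE_MdV_I and 11.4, 12.7 and 13.9 CPM in shControl (0.77 ± 0.15, adjusted p = 0.0241). The groups did not overlap in either gene. Mavs and Sarm1 were no longer called without any 1 of shLINE_MdV_I replicates 1, 2 and 3 and shControl replicates 1 and 2, thus in 5 of 6 cases each. Their adjusted p went up to 0.101 and 0.169. The RNA sensor gene Ifih1 held 18.6, 21.4 and 19.6 CPM in shLINE_MdV_I and 32.6, 17.8 and 20.6 CPM in shControl, where the groups overlapped (adjusted p = 0.772).

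Of 32 tested genes of synapses and transmission 3 were called higher and none lower, and of 17 tested cytoskeletal genes of neurons 1 was. Cplx1, a complexin that clamps and triggers vesicle fusion (chromosome 5, 108518554 to 108550024), held 34.1, 29.6 and 35 CPM in shLINE_MdV_I and 14.8, 14.9 and 16.4 CPM in shControl. Its log2 fold change was 1.10 ± 0.12 (adjusted p = 0.000416), and the lowest shLINE_MdV_I library was well above the highest shControl library. Stmn4, a stathmin that acts on neuronal microtubules, held 11.4, 9.99 and 11.3 CPM in shLINE_MdV_I and 4.47, 5.7 and 5.04 CPM in shControl (1.10 ± 0.16, adjusted p = 0.00425). Snap25, a SNARE protein of vesicle fusion, held 7.73, 7.9 and 7.66 CPM in shLINE_MdV_I and 4.55, 4.47 and 4.08 CPM in shControl (0.83 ± 0.15, adjusted p = 0.0182). Grin1, the obligatory NMDA receptor subunit, held 10.6, 11.4 and 8.95 CPM in shLINE_MdV_I and 6.55, 5.38 and 6.66 CPM in shControl (0.74 ± 0.15, adjusted p = 0.0317). In each of these genes the groups were separate. The calls of Snap25 and Grin1 were lost without any 1 of the 6 compared libraries, thus in all 6 cases (adjusted p up to 0.0983 and 0.163). Cplx1 and Stmn4 stayed called with any 1 library left out.

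Across the neuronal list, 68 of 80 genes were tested, 48 were positive and 20 negative, 4 were called higher and none lower, and the median was 0.22. The cytoskeletal genes had 13 of 17 positive, the synaptic genes 23 of 32 and the transcription factors and RNA-binding proteins 12 of 19. Ina, a neurofilament-type protein, held 13.3, 13.5 and 9.77 CPM in shLINE_MdV_I and 5.73, 5.79 and 7.82 CPM in shControl, without overlap, and was not called (log2 fold change 0.92 ± 0.23, adjusted p = 0.111). The RNA-binding genes Celf3, Elavl3 and Rbfox3 had log2 fold changes of 0.98 ± 0.24, 0.60 ± 0.16 and 0.69 ± 0.22 (adjusted p = 0.09, 0.153 and 0.264). Relative to shControl the list mean was 0.25, 0.26 and 0.21 in shLINE_MdV_I and 0.01, -0.08 and 0.07 in shControl. In sorted bulk cells, more neurons and more such RNA per cell cannot be told apart. With any 1 of the 6 compared libraries left out 2 members were called, and 10 were called higher and 1 lower without the libraries that stand apart.

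Dense-core vesicles store peptides and hormones. A list of their genes was added after the values of this comparison had been seen, so its counts too are a description. Vgf, a neuropeptide precursor induced by growth factors, held 3.86, 2.35 and 2.13 CPM in shLINE_MdV_I and 0.451, 0.497 and 1.13 CPM in shControl (log2 fold change 2.0 ± 0.41, adjusted p = 0.0398). Ptprn, a transmembrane protein of these vesicles (chromosome 1, 75247027 to 75264502), held 12.2, 10.6 and 11.9 CPM in shLINE_MdV_I and 4.66, 5.47 and 4.25 CPM in shControl (1.27 ± 0.18, adjusted p = 0.00421). Scg3, a granin, held 45.6, 46.9 and 48.8 CPM in shLINE_MdV_I and 36.1, 34 and 30.2 CPM in shControl (0.49 ± 0.09, adjusted p = 0.0211). Libraries of the groups were separate in all 3 genes. The granins Chgb, Scg2 and Chga had log2 fold changes of 1.09 ± 0.34, 0.99 ± 0.29 and 0.63 ± 0.17 and were not called (adjusted p = 0.243, 0.194 and 0.151). Of the 17 genes tested, 13 were positive, with a median of 0.32, and 1 of the 3 calls remained without any 1 shLINE_MdV_I library and 2 without any 1 shControl library. Rab3b, a GTPase of secretory vesicles, was also higher, at 374, 358 and 422 CPM in shLINE_MdV_I and 235, 262 and 245 CPM in shControl (0.64 ± 0.09, adjusted p = 0.00413). Vgf and Scg3 lost their calls in 5 and 4 of the 6 cases with 1 compared library left out (adjusted p up to 0.228 and 0.112). Ptprn and Rab3b stayed called in all 6 cases.

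Signalling genes that rose came from several families. The largest fitted change among all higher genes was that of Rasd1, a Ras-like G protein first known as induced by glucocorticoids (chromosome 11, 59963181 to 59964944). Rasd1 was at 2.66, 1.87 and 2.3 CPM in shLINE_MdV_I and 0.258, 0.0864 and 0.189 CPM in shControl, which is 133, 92 and 110 counts against 12, 4 and 9 (log2 fold change 3.66 ± 0.41, adjusted p = 0.00057). The lowest shLINE_MdV_I library held several times the counts of the highest shControl library. Rgs16, which ends signalling of G proteins, held 15.3, 12.9 and 15 CPM in shLINE_MdV_I and 6.98, 5.51 and 5.99 CPM in shControl (1.22 ± 0.21, adjusted p = 0.0152). It was 1 of 17 tested genes of the regulators of G protein signalling, 11 of them positive, and no other was called. Dgkg, a kinase of diacylglycerol, and Mtmr11, a myotubularin-related gene, were called higher among 21 genes of those families. Mtmr11 held 80.4, 80.2 and 81.1 CPM in shLINE_MdV_I and 47.7, 48.2 and 50.4 CPM in shControl, with replicates close together in both groups (0.73 ± 0.08, adjusted p = 0.000741), and Dgkg changed by 0.73 ± 0.12. Fosl1, a Fos-related part of the AP-1 factor, held 2.98, 3.09 and 3.18 CPM in shLINE_MdV_I and 1.72, 1.45 and 1.39 CPM in shControl (1.02 ± 0.22, adjusted p = 0.046). Of 26 immediate early genes tested 16 were positive, the median was 0.07 and Fosl1 alone was called. Map2k3, a kinase that activates p38, changed by 0.53 ± 0.11. Rgs16, Dgkg, Fosl1 and Map2k3 lost their calls in 3, 2, 6 and 6 of the 6 cases with 1 compared library left out. Their adjusted p went up to 0.0961, 0.0961, 0.17 and 0.172, while Rasd1 and Mtmr11 stayed called with any 1 library left out.

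Secreted and surface genes moved in both directions. Thbs2, a thrombospondin that binds the extracellular matrix (chromosome 17, 14665500 to 14694235), held 3.68, 2.78 and 3.22 CPM in shLINE_MdV_I and 1.01, 0.583 and 0.841 CPM in shControl (log2 fold change 1.99 ± 0.26, adjusted p = 0.0023). Cd80, known as a costimulatory ligand of T cells, was at 75, 53 and 77 counts in shLINE_MdV_I and 27, 4 and 11 counts in shControl (2.21 ± 0.47, adjusted p = 0.047). Prss23, a secreted serine protease (chromosome 7, 89507783 to 89527187), held 82, 77.7 and 87.1 CPM in shLINE_MdV_I and 43.6, 43.9 and 40.1 CPM in shControl (0.95 ± 0.09, adjusted p = 0.000134). All 3 genes had separate groups, and Prss23 and Hist1h1c share the smallest adjusted p of the comparison. Sostdc1, a secreted antagonist of BMP and Wnt ligands, was higher by 1.24 ± 0.25. The protease inhibitor Serpina3n, which reactive astrocytes produce, held 2.02, 1.97 and 2.36 CPM in shLINE_MdV_I and 6.38, 6.09 and 6.51 CPM in shControl (-1.58 ± 0.24, adjusted p = 0.00569). Serpinb1a and Serpinb8, inhibitors inside cells, had log2 fold changes of -1.41 ± 0.22 and -0.93 ± 0.19 and were called lower. In the list of serpins and proteases, 60 of 169 genes were tested, with these 3 lower and Prss23 higher. Col9a3, a collagen chain, was called lower (-0.92 ± 0.20, adjusted p = 0.0489) among 59 tested collagens, laminins and integrins. Mfge8 and Edil3, which bridge dying cells and phagocytes, had log2 fold changes of -0.41 ± 0.08 and -0.79 ± 0.17, and the Wnt receptor gene Fzd9 one of -0.49 ± 0.10, all called lower. With 1 compared library left out, Sostdc1, Col9a3 and Edil3 lost their calls in all 6 cases (adjusted p up to 0.176, 0.222 and 0.245). Cd80, Serpinb8, Mfge8 and Fzd9 lost theirs in 5 cases each (adjusted p up to 0.193, 0.266, 0.178 and 0.196). Serpina3n and Serpinb1a lost theirs in 2 cases each (adjusted p up to 0.0584 and 0.067). Thbs2 and Prss23 stayed called with any 1 library left out.

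**Figure D3:**
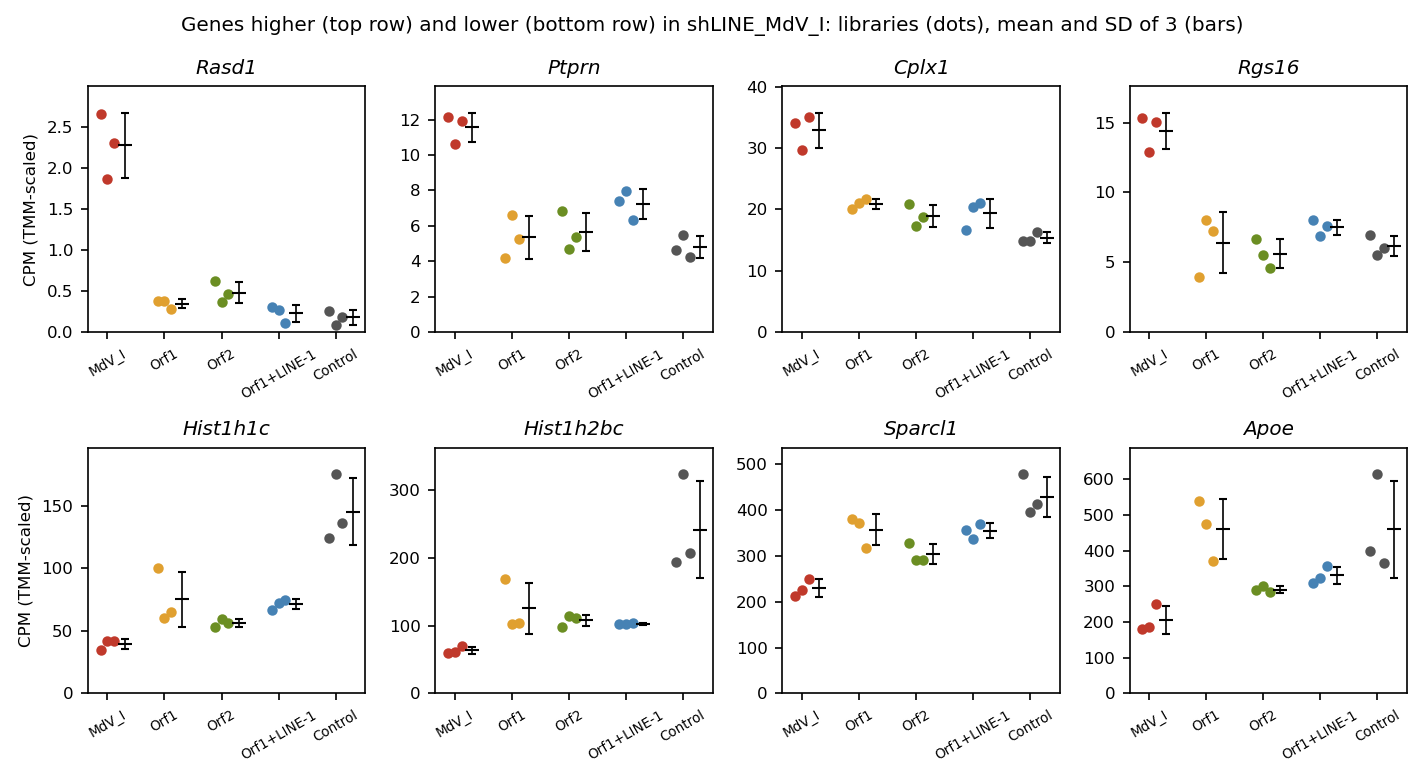
CPM of 4 genes that were higher (top) and 4 that were lower (bottom) in shLINE_MdV_I, in each of the 15 libraries. Dots are libraries and bars the mean and SD of 3, with shLINE_MdV_I at the left and shControl at the right. For Hist1h1c and Hist1h2bc the shLINE_Orf1, shLINE_Orf2 and shLINE_Orf1+LINE-1 libraries lie between the shLINE_MdV_I and shControl libraries.

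Astrocyte genes were lower in 4 cases and higher in 2 of 41 tested. Sparcl1, a secreted protein of astrocytes that promotes synapse formation (chromosome 5, 104079111 to 104113733), held 213, 225 and 251 CPM in shLINE_MdV_I and 479, 396 and 413 CPM in shControl (log2 fold change -0.90 ± 0.11, adjusted p = 0.000871). Apoe, the main lipid carrier of the brain, held 180.4, 187 and 249 CPM in shLINE_MdV_I and 398, 615 and 366 CPM in shControl, where replicate 2 was the highest (-1.16 ± 0.19, adjusted p = 0.00787). The groups did not overlap in either gene. Aldh1a1, which makes retinoic acid, held 1.46, 2.13 and 1.57 CPM in shLINE_MdV_I and 5.43, 6.52 and 5.4 CPM in shControl (-1.75 ± 0.33, adjusted p = 0.0232). Agt, the precursor of angiotensin, held 1.56, 1.22 and 1.84 CPM in shLINE_MdV_I and 3.07, 3.91 and 2.65 CPM in shControl (-1.06 ± 0.22, adjusted p = 0.0375). The astrocyte receptor gene Gpr37l1 was higher, at 14.9, 17.7 and 14.5 CPM in shLINE_MdV_I and 9.62, 11.1 and 10.9 CPM in shControl (0.57 ± 0.12, adjusted p = 0.0355), as was Scg3. The list had 25 negative and 16 positive values with a median of -0.09, and with 1 library left out 1 or 2 members were called lower and 0 or 1 higher, except that 4 were lower without shControl replicate 3. Apoe, Aldh1a1, Agt and Gpr37l1 lost their calls in 2, 5, 5 and 6 of the 6 cases with 1 compared library left out. Their adjusted p went up to 0.0983, 0.176, 0.229 and 0.176, and Sparcl1 stayed called in all 6 cases. Gfap, the astrocyte filament gene, averaged 3.39 ± 0.427 CPM in shLINE_MdV_I and 3.5 ± 1.02 CPM in shControl. No member of the progenitor list (38 tested, median 0.05) or the oligodendrocyte list (26 tested, median 0.06) was called. Dll3, a Notch ligand, and Gpr17, a receptor of oligodendrocyte precursors, had log2 fold changes of 0.68 ± 0.17 and 0.82 ± 0.27 (adjusted p = 0.104 and 0.299).

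Genes of lipid and energy metabolism were called singly. Degs1, the desaturase that completes ceramide synthesis (chromosome 1, 182275772 to 182282804), held 121, 115 and 117 CPM in shLINE_MdV_I and 177, 184 and 174 CPM in shControl, with little spread in either group (log2 fold change -0.60 ± 0.08, adjusted p = 0.00404). Gpd1, a cytosolic glycerol phosphate dehydrogenase, held 18.3, 18.7 and 16.8 CPM in shLINE_MdV_I and 34.8, 33.4 and 31.8 CPM in shControl (-0.89 ± 0.12, adjusted p = 0.00217). Ckmt1, the mitochondrial creatine kinase, was higher, at 10.5, 5.52 and 9.81 CPM in shLINE_MdV_I and 3.2, 2.18 and 2.65 CPM in shControl (1.69 ± 0.25, adjusted p = 0.00533). The groups were separate in all of these. Acss2, which makes acetyl-CoA from acetate, was the single call among 31 genes of cholesterol and fatty acid synthesis, of which 27 were positive with a median of 0.14 (0.46 ± 0.10, adjusted p = 0.0439). Cpox, an enzyme of heme synthesis, changed by 0.69 ± 0.15 and was the single call of 12 heme genes. Cbs, which makes cystathionine, and Ass1, which makes argininosuccinate, changed by 0.43 ± 0.08 and -1.19 ± 0.21. The small heat shock gene Cryab held 30.6, 28.9 and 35.2 CPM in shLINE_MdV_I and 18.3, 20.5 and 20.3 CPM in shControl (0.68 ± 0.11, adjusted p = 0.0107), the single call of 17 heat shock genes. With 1 compared library left out, the calls of Acss2, Cpox, Cbs, Ass1 and Cryab were lost in 6, 6, 5, 4 and 3 of 6 cases. Their adjusted p went up to 0.178, 0.173, 0.117, 0.147 and 0.0742, while Degs1, Gpd1 and Ckmt1 stayed called with any 1 library left out.

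Of 64 tested histone genes 6 were called lower and none higher. The linker histone gene Hist1h1c (chromosome 13, 23738808 to 23740367) held 34.9, 41.6 and 42.2 CPM in shLINE_MdV_I and 124, 175 and 136 CPM in shControl (log2 fold change -1.87 ± 0.17, adjusted p = 0.000134). Hist1h2bc, a core histone gene (chromosome 13, 23684199 to 23692908), held 59.3, 61.5 and 69.8 CPM in shLINE_MdV_I and 194, 323 and 207 CPM in shControl (-1.93 ± 0.20, adjusted p = 0.000388). Neither gene showed overlap, and shControl replicate 2 was the highest library in both. Hist3h2a held 34.9, 36.5 and 36.9 CPM in shLINE_MdV_I and 49.7, 76.6 and 59.9 CPM in shControl (-0.78 ± 0.14, adjusted p = 0.0152). Hist1h2ac, Hist2h3c1 and Hist2h3c2, of which the Hist2h3 genes are close copies of each other, were called lower as well (-1.81 ± 0.33, -1.32 ± 0.23 and -1.97 ± 0.39). By sign 58 of the tested histone genes were negative, and the median was -0.44. Hist3h2a, Hist1h2ac, Hist2h3c1 and Hist2h3c2 lost their calls in 3, 5, 4 and 6 of the 6 cases with 1 compared library left out. Their adjusted p went up to 0.136, 0.163, 0.108 and 0.211, and Hist1h1c and Hist1h2bc stayed called in all 6 cases.

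The histone list mean, relative to shControl, was -0.55, -0.51 and -0.48 in shLINE_MdV_I and -0.38, 0.39 and -0.01 in shControl, so the distance to shControl replicate 1 was small. Other groups were low too in most libraries. The mean was 0.58, -0.48 and -0.19 in shLINE_Orf1 and -0.45, -0.28 and -0.30 in shLINE_Orf2. In shLINE_Orf1+LINE-1 it was -0.35, -0.24 and -0.09. Without shControl replicate 2 the median was -0.18, 44 of 64 genes were negative and 4 were called. With each shLINE_MdV_I library left out 2 were called, and without shControl replicate 1 the number was 3. Cell cycle genes gave no call among 111 tested (62 positive, 49 negative, median 0.03).

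Other lists held few calls or none, and their members are given as values. Restriction and silencing factors of LINE-1 had 26 positive and 27 negative values in 53 tested genes, a median of -0.01 and no call. Zc3hav1, an antiviral protein that binds RNA, had a log2 fold change of -0.29 ± 0.14 (adjusted p = 0.612). Targets of p53 gave 17 positive and 18 negative values in 35. Glycolytic and hypoxia genes were positive in 30 of 31 entries with a median of 0.15 and none called, with Pfkp at 0.50 ± 0.14 (adjusted p = 0.181). The list mean of the glycolytic genes was 0.26, 0.18 and 0.22 in shLINE_MdV_I and -0.05, 0.06 and -0.01 in shControl. It was 0.04, 0.23 and -0.08 in shLINE_Orf1 and 0.81, 0.38 and 0.005 in shLINE_Orf2. In shLINE_Orf1+LINE-1 the mean was -0.285, -0.292 and -0.282. Oxidative phosphorylation genes were negative in 68 of 80 with a median of -0.12, and this sign turned without shControl replicate 2, where the median was 0.11. Cox8b, a subunit of cytochrome oxidase, was the single call there (-2.14 ± 0.41, adjusted p = 0.0238), at 13, 15 and 20 counts in shLINE_MdV_I and 54, 97 and 52 counts in shControl. Crybb1, a lens crystallin gene, was called lower at 1, 2 and 3 counts in shLINE_MdV_I and 9, 28 and 15 counts in shControl. Cox8b and Crybb1 each lost their call in 5 of the 6 cases with 1 compared library left out, with adjusted p up to 0.178 and 0.228.

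**Figure D4:**
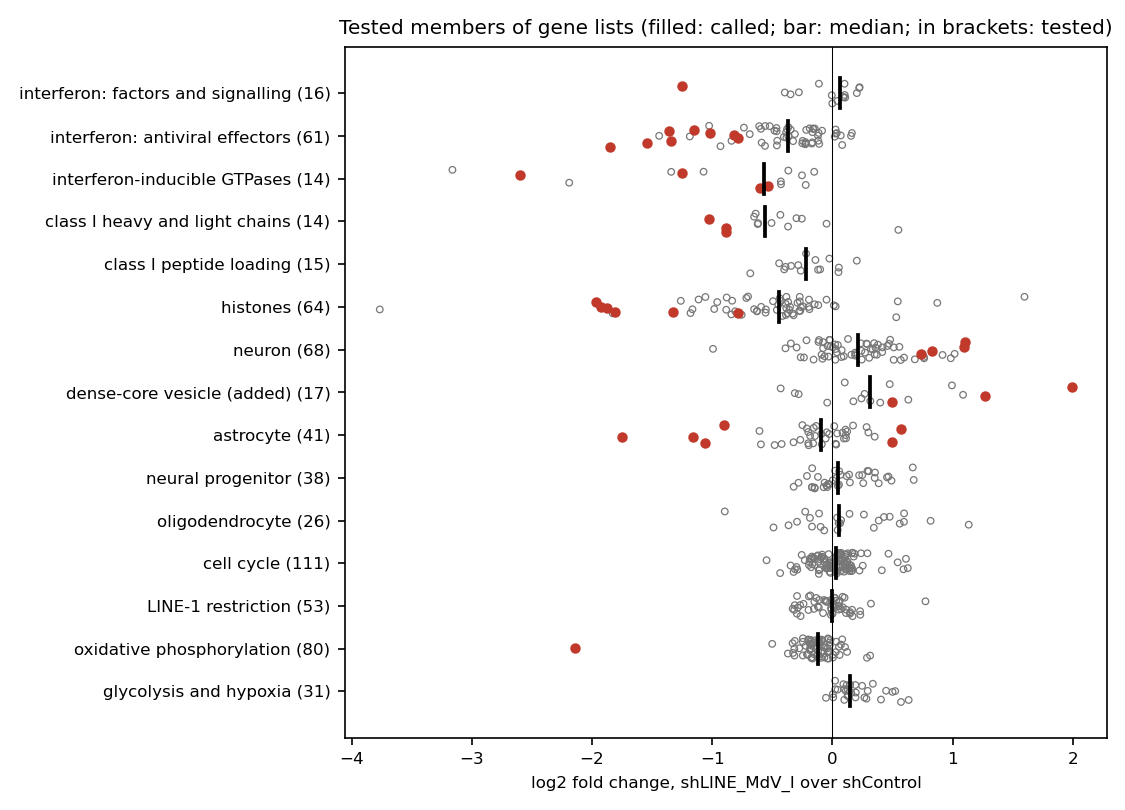
Log2 fold change of shLINE_MdV_I over shControl for the tested members of 15 gene lists, with the number tested in brackets. Filled points were called, open points were not and bars are medians. The medians of the interferon effectors (-0.37), the GTPases (-0.57), the class I chains (-0.56) and the histones (-0.44) lie left of 0, and those of the neuronal (0.22) and dense-core vesicle (0.32) lists lie right of it.

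A direct contrast of shLINE_MdV_I with the mean of shLINE_Orf1 and shLINE_Orf2 tested where this hairpin differed from the other hairpins. The difference itself uses no shControl values, but the filter, the scaling and the spread came from all 15 libraries, shControl included. This contrast called 31 genes higher (0.205%) and 39 lower (0.257%). When the fit held the compared groups alone, it called 10 higher and 5 lower. Against shLINE_Orf1 alone 38 genes were higher and 66 lower (0.251% and 0.436%), and against shLINE_Orf2 alone 15 were higher and 2 lower (0.099% and 0.0132%). Against shLINE_Orf1+LINE-1 42 were higher and 61 lower (0.277% and 0.403%). The 2 genes lower than in shLINE_Orf2 were Gm15280, a predicted gene, and Degs1. The count of 70 for the mean became 11, 12 and 19 without shLINE_MdV_I replicates 1, 2 and 3 and 40 and 29 without shLINE_Orf2 replicates 1 and 2. The lower calls, 39 in all, became 2, 2 and 7 without shLINE_MdV_I replicates 1, 2 and 3 and 17 and 12 without shLINE_Orf2 replicates 1 and 2.

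In this contrast 14 of 91 tested interferon genes were called lower and none higher. Tgtp2 held 0.639, 0.65 and 0.439 CPM in shLINE_MdV_I, against 4.18, 1.78 and 2.78 CPM in shLINE_Orf1 and 1.65, 2.07 and 1.5 CPM in shLINE_Orf2, a log2 difference of -1.96 ± 0.32 (adjusted p = 0.0126). Irf7 held 14.8, 15.8 and 15.1 CPM in shLINE_MdV_I, against 36.4, 31.2 and 28.3 CPM in shLINE_Orf1 and 32.3, 29.5 and 18.7 CPM in shLINE_Orf2 (-0.94 ± 0.16, adjusted p = 0.0155). No library of the other hairpins reached down to those of shLINE_MdV_I. Ifit3b, Igtp, Bst2 and B2m differed by -0.91 ± 0.15, -0.69 ± 0.10, -0.71 ± 0.13 and -0.77 ± 0.14. Usp18, which removes Isg15 from proteins, and Trim30a, an interferon-induced ubiquitin ligase gene, were called here and not against shControl (-0.56 ± 0.11 and -1.32 ± 0.24, adjusted p = 0.0301 and 0.0262). None of these was called against shLINE_Orf2 alone, where Irf7 had a log2 difference of -0.82 ± 0.18 (adjusted p = 0.121) and Tgtp2 one of -1.59 ± 0.35 (adjusted p = 0.121).

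Genes that rose were also tested in the direct contrast. Rasd1 held 2.66, 1.87 and 2.3 CPM in shLINE_MdV_I, against 0.38, 0.376 and 0.285 CPM in shLINE_Orf1 and 0.622, 0.362 and 0.457 CPM in shLINE_Orf2 (2.47 ± 0.30, adjusted p = 0.00184). Thbs2, Vgf, Ckmt1, Rgs16, Ptprn and Cplx1 were higher than the mean of shLINE_Orf1 and shLINE_Orf2 by 2.13, 1.97, 1.56, 1.26, 1.07 and 0.73 on the log2 scale, all called. Against shLINE_Orf2 alone Vgf was not called (adjusted p = 0.17), while Rasd1, Thbs2, Ckmt1, Rgs16, Ptprn and Cplx1 were. Neurod1, a transcription factor of early neurons, was at 48, 49 and 57 counts in shLINE_MdV_I. In CPM it was at 0.959, 0.995 and 1.19 in shLINE_MdV_I, 0.152, 0.251 and 0.263 in shLINE_Orf1, 0.322, 0.101 and 0.312 in shLINE_Orf2 and 0.365, 0.518 and 0.967 in shControl, so shLINE_MdV_I was above the other hairpins (2.16 ± 0.37, adjusted p = 0.0158) and not called against shControl (0.76 ± 0.42, adjusted p = 0.69). Sparcl1, Degs1, Gpd1 and Hist1h2bc were lower than the mean of shLINE_Orf1 and shLINE_Orf2 (-0.52 ± 0.09, -0.64 ± 0.07, -0.57 ± 0.10 and -0.87 ± 0.18). Of these, Degs1 was also called against shLINE_Orf2 alone, and Sparcl1, Gpd1 and Hist1h2bc were not (adjusted p = 0.26, 0.531 and 0.243).

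For other called genes the direct difference was near 0. Mavs held 30.7, 29.3 and 31.1 CPM in shLINE_MdV_I, 22.1, 33.2 and 31 CPM in shLINE_Orf1, 33.4, 32.5 and 30.5 CPM in shLINE_Orf2 and 18.2, 16.5 and 20.2 CPM in shControl, and its direct difference from the other hairpins was -0.00 ± 0.11 (adjusted p = 0.999). Rab3b had a direct difference of -0.05 ± 0.08 (adjusted p = 0.826). The vacuolar ATPase subunit gene Atp6v1b2 and the deSUMOylase gene Desi1 differed by 0.05 ± 0.07 and -0.00 ± 0.07, and Mfge8 by 0.02 ± 0.07, all uncalled. Cryab differed the other way, at 30.6, 28.9 and 35.2 CPM in shLINE_MdV_I, against 69.9, 58.3 and 53.9 CPM in shLINE_Orf1 and 36.4, 38.2 and 40.6 CPM in shLINE_Orf2 (-0.61 ± 0.10, adjusted p = 0.0126). Against shLINE_Orf2 alone Cryab was not called (-0.28 ± 0.11, adjusted p = 0.727). Hist1h1c was at 34.9, 41.6 and 42.2 CPM in shLINE_MdV_I, against 100.2, 59.9 and 65.3 CPM in shLINE_Orf1 and 52.9, 59.8 and 56.2 CPM in shLINE_Orf2, all below every shControl library, and the direct difference was -0.72 ± 0.15 (adjusted p = 0.0518).

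Of the 90 genes, 12 were called under all 17 alternative settings tried. They are Rasd1, Thbs2, Ckmt1, Ptprn, Cplx1, Stmn4, Prss23 and Mtmr11, which were higher, and Hist1h2bc, Hist1h1c, Gpd1 and Sparcl1, which were lower. Irf7, Ifit3b, H2-D1, Tgtp2 and Degs1 each lost their call under 1 setting, the fit restricted to libraries whose description ends in 1. That fit leaves shLINE_MdV_I replicate 1 as the only library of its group. With single libraries of the compared groups left out, 22 of the 90 kept their call throughout, 51 lost it in some cases and 17 in each of the 6 cases. No called gene changed its sign under any setting.

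**Figure D5:**
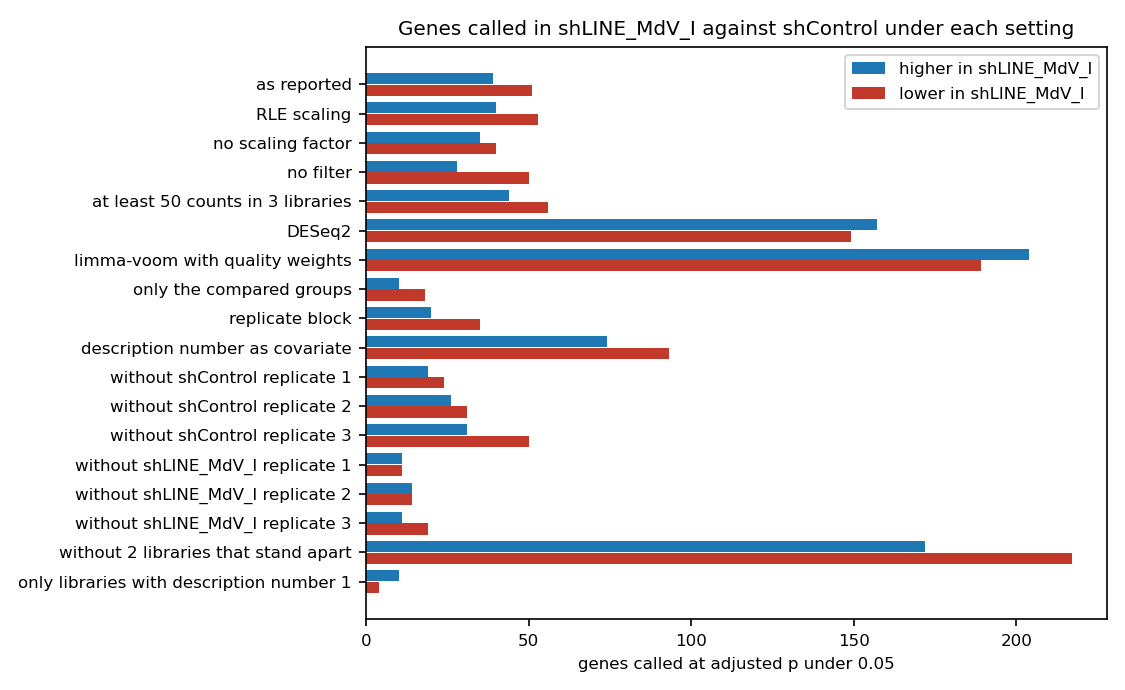
Number of genes called higher (blue) and lower (red) in shLINE_MdV_I against shControl, on the x axis, under the fit as reported and each alternative setting. The totals run between 22 and 393, with 90 as reported, apart from the setting with only libraries of description number 1. That setting leaves shLINE_MdV_I replicate 1 as the only library of its group.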

How the data were processed

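RNA was measured in 15 libraries prepared with a SMART-seq2-type method, per the labels. The authors deposited unnormalized expected counts, which are estimates that need not be whole, for each transcript and library, made with cutadapt, RSEM and mm10 per the submitters' processing notes, which give neither role nor order. The sources used here give no versions, settings, annotation release or strand. Of 111462 transcripts, 110203 have a gene in GENCODE M21 (GRCm38, matched by ID without version), and their counts were summed to 34989 genes and rounded. The other 1259 (0.583% to 0.637% of counts per library) and 1 blank row were left out.

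Genes were filtered with filterByExpr (minimum count 10) and libraries scaled with TMM. The robust quasi-likelihood fit of edgeR 4.0.16 (R 4.3.3) took all 15 libraries, with a term for each of 5 groups and a common biological coefficient of variation of 0.158. Benjamini-Hochberg adjustment of p-values ran over 15147 genes, of which 1308 had an unadjusted p under 0.05 against shControl. CPM are counts scaled by the TMM library size, and SE is the log2 fold change divided by the root of F. The test was checked on simulated counts. DESeq2 1.42.0 and limma 3.58.1 (voom) served as alternatives. Python 3.11.15, pandas 2.3.3, numpy 2.4.6 and matplotlib 3.10.9 were used. The authors' own model table was not used.

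The comparison, the gene lists and the tests were chosen with earlier results of these data known. Genes named were, in each direction, the 14 called genes of largest log2 fold change whose mean log2 CPM was 3 or more, with no overlap between the groups and a regular gene symbol. Also named were the called members of each list, or those with the smallest p. Other called genes at lower levels, and the list of dense-core vesicle genes, were chosen after their values were seen. Promoter windows are those of RefSeq (GRCm38.p6).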

Additional observations from a re-analysis of the deposited data

How the results depend on the processing

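The genes called in shLINE_MdV_I against shControl numbered 90 as reported. The count was 306 with DESeq2, 393 with limma-voom, 28 when the fit held only the compared groups, 167 with the description number as covariate, 389 without shControl replicate 2 and shLINE_Orf1 replicate 1, and 14 with only the libraries of description number 1, a setting chosen after seeing the data. Leaving out 1 library at a time gave 22 to 81. The genes called in shLINE_MdV_I against the mean of shLINE_Orf1 and shLINE_Orf2 numbered 70 as reported, 265 with DESeq2, 1041 with limma-voom, 15 with only the compared groups, 511 with the description number as covariate, 255 without those libraries that stand apart and 11 to 96 with 1 library left out. RLE scaling, no scaling factor, no filter and a filter of at least 50 counts in 3 libraries kept both counts within 1.5 times. With the replicate number as a block the counts were 55 and 33. Deviations of same-numbered shLINE_MdV_I and shControl libraries correlated at 0.03, -0.05 and -0.12, and those of unlike-numbered libraries at -0.10 to 0.14. With 3 libraries per group these values cannot decide whether the numbers pair the samples, and the labels state no pairing. All alternatives kept the sign of each of the 90 genes, and 34 of them kept their call under at least 12 of 17. The median over all genes moved by less than 0.1 on the log2 scale in every setting. Genes with low counts in 1 group are limited by counting error there. Among them are Rasd1 and Cd80 in shControl and Crybb1 in shLINE_MdV_I. All genes are limited by 3 libraries per group.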

Other observations

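Some genes outside the lists above were also called. Hbs1l, which rescues stalled ribosomes, held 115, 122 and 119 CPM in shLINE_MdV_I and 85.9, 70.8 and 84.2 CPM in shControl. Eral1, a GTPase that assembles the mitochondrial ribosome, changed by 0.53 ± 0.10 on the log2 scale with its SE (edgeR adjusted p = 0.0256), and Arpc1b, a subunit of the actin-nucleating Arp2/3 complex, by 0.49 ± 0.09 (adjusted p = 0.0238). Crk, an adaptor of tyrosine kinase signalling, held 126, 136 and 125 CPM in shLINE_MdV_I and 205, 169 and 175 CPM in shControl, and differed from the mean of shLINE_Orf1 and shLINE_Orf2 by -0.51 ± 0.08 (adjusted p = 0.0126). Against shLINE_Orf2 alone Crk was not called (adjusted p = 0.0776). Tmem59, a membrane protein gene, fell by 0.55 ± 0.10 on the log2 scale (adjusted p = 0.0211). Lynx1, which modulates nicotinic receptors, held 5.31, 4.87 and 5.65 CPM in shLINE_MdV_I and 9.71, 9.7 and 9.5 CPM in shControl, without overlap. Klhl26, a kelch-like gene, Bod1, which acts in chromosome alignment, and Liph, a phospholipase gene, were higher by 0.68 ± 0.14, 0.65 ± 0.12 and 0.61 ± 0.12 on the log2 scale (adjusted p = 0.0417, 0.0211 and 0.0309). Of the 9 genes named here, none stayed called with each of the 6 compared libraries left out in turn. Hbs1l and Lynx1 lost their calls in 3 and 2 of these 6 cases, with adjusted p up to 0.0825. Eral1, Arpc1b, Crk and Tmem59 lost theirs in 5, 4, 4 and 5 (adjusted p up to 0.155, 0.138, 0.17 and 0.148). Klhl26, Bod1 and Liph lost theirs in 5 each (adjusted p up to 0.17, 0.108 and 0.147). Bod1 differed from the mean of shLINE_Orf1 and shLINE_Orf2 by 0.04 ± 0.10.

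Genes of cytosolic ribosomal proteins were negative in 70 of 78 tested members, with a median log2 fold change of -0.11 and none called. Without shControl replicate 2 the sign turned, with 75 positive members and a median of 0.15, and the list means of the shLINE_MdV_I libraries (-0.11, -0.11 and 0.04) lay within those of shControl (-0.37, 0.44 and -0.07). The mitochondrially encoded mRNAs were negative in all 12 tested members, with a median of -0.38 (-0.16, with 10 negative, without shControl replicate 2) and none called, and took 1.40%, 1.37% and 1.61% of the counts in shLINE_MdV_I and 1.73%, 2.02% and 1.36% in shControl, where the groups overlapped. The complement protease gene C1s1 was at 4, 4 and 4 counts in shLINE_MdV_I and 38, 30 and 16 counts in shControl and was not called (adjusted p = 0.0579). The scavenger receptor gene Cd68, a macrophage marker, had a log2 fold change of 1.17 ± 0.27 (adjusted p = 0.0697).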
